A study of Mus musculus with 2 samples.

Results

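Pituicytes are the resident glia of the neurohypophysis (NH), the posterior lobe of the pituitary, where they surround the axon terminals that release oxytocin and vasopressin into fenestrated capillaries. They descend from the floor of the hypothalamus and share genes with tanycytes, the glia that line the third ventricle there, and with astrocytes. The cells described here are the ones the authors' clustering placed in the cluster named pituicytes a. It holds 87 of the 528 cells that passed the filters and of the 196 cells in the 3 pituicyte clusters, beside 55 cells of pituicytes b and 54 of pituicytes c. Members were found by solving the deposited table of 11 cluster means for the single cells, and each of the 87 carried a weight of at least 0.999 in its own column and at most 0.00258 in any other. The mean of the 87 cells departed from the deposited column by at most 0.488 UMIs per 10000 UMIs in any gene. UMIs are molecular barcodes, each counted once.

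The study dissociated the NH of male C57/BL6 mice, 3 months old, with Liberase and papain, and profiled the cells by droplet scRNA-Seq (10x Genomics Chromium version 2). There were 2 pools of 5 mice each, both of untreated wild-type animals, so the data hold no treatment contrast and the error of a value is the spread between 2 pools. The dissected tissue carried adjoining intermediate lobe (IL), whose melanotropes make up the clusters deposited as neural progenitor a and b. Pool 1 had 273 cells that passed the filters, with 699676 UMIs, and pool 2 had 255, with 726706 UMIs, and the pools shared 0 of these cell barcodes. Of pituicytes a, 34 cells came from pool 1 and 53 from pool 2, with 69119 and 152532 UMIs in sum. Their share of a pool's cells was 12.5% (exact 95% interval 8.78 to 17.0%) and 20.8% (16.0 to 26.3%). Among pituicytes alone the shares were 31.5% (22.9 to 41.1%) and 60.2% (49.2 to 70.5%), so the split of pituicytes into a, b and c was not alike in the 2 pools. These exact (Clopper-Pearson) intervals cover counting error only. A filter on doublets marked 5 of the 528 cells, and 0 of them were pituicytes a.

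The 5 genes given as markers of the cluster were found in most of these cells but did not set them apart from pituicytes b and c. The study selected *Col25a1*, *Scn7a* and *Col13a1* from these same data, so their levels here describe the cells and do not test their identity. *Col25a1* encodes a transmembrane collagen of neurons and glia, *Col13a1* another transmembrane collagen, *Ptn* the secreted growth factor pleiotrophin, *Scn7a* a sodium channel that senses extracellular sodium in glia, and *Cldn10* a claudin of tight junctions. With each cell thinned to 1000 UMIs, a UMI of at least 3 of the 5 was found in 77 of 87 pituicytes a (88.5%), in 45 of 55 pituicytes b (81.8%) and in 43 of 54 pituicytes c (79.6%). In the IL clusters this held for 2 of 94 and 1 of 54 cells. It held for 0 cells of the macrophage, T-cell, endothelial, vascular and epithelial clusters. Without thinning, 85 of the 87 cells had at least 3 of the markers and 49 had all 5. No pituicyte a cell lacked all 5 markers, whereas 1 cell of pituicytes b and 2 of pituicytes c did.

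**Figure D1:**
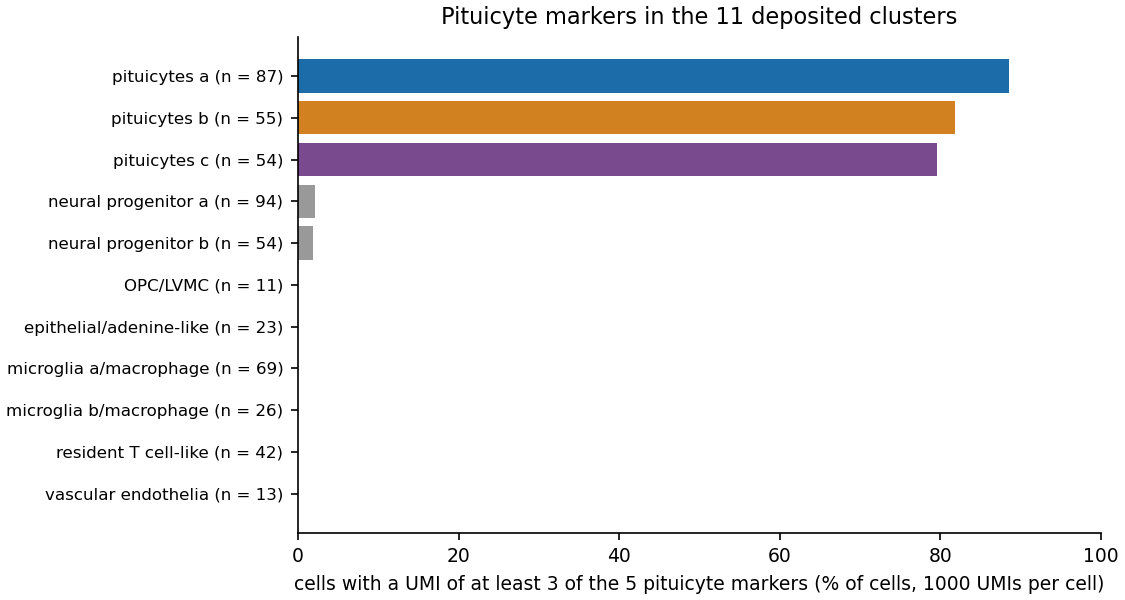
Percent of cells with a UMI of at least 3 of the 5 pituicyte markers in each of the 11 deposited clusters, with each cell thinned to 1000 UMIs and the number of cells beside each name. The 3 pituicyte clusters lie between 79.6 and 88.5%, and the remaining clusters at or below 2.13%.

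In pituicytes a summed over cells, *Col25a1* (ENSMUSG00000058897, chromosome 3, 130131501 to 130599877, GRCm38) was at 1989 CPM (UMIs per 1000000 UMIs) in pool 1 and 1674 CPM in pool 2, against 1643 and 1434 in pituicytes b and 1560 and 1605 in pituicytes c. These levels, like the levels of the 3 clusters below unless said otherwise, are scaled by TMM, which matches the bulk of genes between sums. It was the marker for which both pools of pituicytes a lay above both pools of b and of c, by a log2 fold of 0.24 (SE 0.29) and 0.21 (SE 0.28), each within its SE. *Ptn* (ENSMUSG00000029838, chromosome 6, 36714929 to 36810220) was at 5134 and 4442 CPM in pituicytes a, 4013 and 4948 in b and 3816 and 4582 in c. *Scn7a* (ENSMUSG00000034810, chromosome 2, 66673425 to 66784914) stood at 2062 and 1497 in a, 1796 and 1291 in b and 1540 and 2369 in c, the highest single value being that of c in pool 2. The ranges of the pools overlapped for both genes. *Cldn10* (ENSMUSG00000022132, chromosome 14, 118787908 to 118875489) had 775 and 1191 CPM in a, 650 and 1219 in b and 706 and 904 in c. *Col13a1* (ENSMUSG00000058806, chromosome 10, 61838236 to 61979108) had 1170 and 1338, against 1433 and 1004 in b and 1236 and 1107 in c. Both overlapped between the clusters, and the log2 folds of the 5 markers ran from 0.04 to 0.24 over b and from -0.14 to 0.32 over c.

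The stretches of 250 bases before the RefSeq start sites of the 5 markers were searched for the letters of homeodomain binding, TAATTA, as read by factors of the Rax and Lhx2 kind, and for CAAGTG on either strand (CACTTG on the reverse), as read by Nkx2-1, a factor of the ventral hypothalamus. The 2 motifs do not overlap in their letters. Of all 32851 mouse promoters in the table, 4.84% held TAATTA and 11.6% held CAAGTG in these 250 bases. No match was found before the starts of *Scn7a*, *Col25a1* and *Ptn*. The 3 stretches with a match are shown because these markers are high together in pituicytes, and a match is a description of the letters, not a site. Sequences are from RefSeq (GRCm38.p6), 5′ to 3′ in the direction of the gene, and capitals mark the matches.
Cldn10, first start, plus strand, chr14:118787621-118787870: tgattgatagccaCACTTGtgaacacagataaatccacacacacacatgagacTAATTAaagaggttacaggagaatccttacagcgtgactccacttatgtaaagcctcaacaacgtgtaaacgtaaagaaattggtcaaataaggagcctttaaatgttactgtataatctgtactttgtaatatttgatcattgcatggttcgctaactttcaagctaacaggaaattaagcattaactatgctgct
Cldn10, second start, plus strand, chr14:118854700-118854949: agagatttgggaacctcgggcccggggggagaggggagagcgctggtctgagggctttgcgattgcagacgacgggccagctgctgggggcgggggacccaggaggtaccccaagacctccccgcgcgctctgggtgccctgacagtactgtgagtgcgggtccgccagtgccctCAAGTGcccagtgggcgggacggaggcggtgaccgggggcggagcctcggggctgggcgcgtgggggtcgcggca
Col13a1, minus strand, chr10:61979109-61979358: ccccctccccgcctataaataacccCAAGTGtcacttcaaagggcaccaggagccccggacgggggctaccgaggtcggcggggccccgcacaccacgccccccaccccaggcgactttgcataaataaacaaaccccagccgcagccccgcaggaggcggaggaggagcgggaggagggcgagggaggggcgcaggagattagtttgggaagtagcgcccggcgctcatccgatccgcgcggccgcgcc
Counted from the 5′ end of each stretch, the first *Cldn10* start had CACTTG at position 14 and TAATTA at position 54, the second had CAAGTG at position 176, and *Col13a1* had CAAGTG at position 26.

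Other genes of pituicytes in the study's account did not pass the size rule against b or c, except adrenomedullin against b. *Adm*, which encodes this vasodilator peptide (chromosome 7, 110627661 to 110629820), was at 658 and 648 CPM in pituicytes a, 363 and 167 in b and 402 and 265 in c. Both pools of a lay above all 4 other values, by a log2 fold of 1.26 (SE 0.42) over b and 0.94 (SE 0.38) over c. An *Adm* UMI was present in 46.0% of pituicytes a at 1000 UMIs per cell (exact 95% interval 35.2 to 57.0%), in 30.9% (19.1 to 44.8%) of b and in 22.2% (12 to 35.6%) of c, beside 2.38% of T cells. The fold over b was 0.86 in pool 1 alone and 0.72 with cells thinned, short of the size rule given below, and with pool as a block the fold over c was 1.0, which met it. *Vegfa*, the growth factor of vascular endothelium, reached 512 and 666 in a, 497 and 191 in b and 569 and 421 in c, a log2 fold of 0.75 (SE 0.42) and 0.25 (SE 0.38). *Rax*, a homeobox factor of the hypothalamus and of tanycytes, was at 307 and 269 in a, 459 and 311 in b and 324 and 249 in c, a log2 fold of -0.45 (SE 0.39) over b and -0.03 (SE 0.37) over c. *Srebf1*, a factor of fatty acid synthesis, had 951 and 422 CPM in a, 975 and 406 in b and 746 and 701 in c. It differed more between the pools of a and of b than between a and b, while the pools of c were close. *Gja1*, the gap junction protein connexin 43 of astrocytes, had 614 and 874 in a, 822 and 430 in b and 608 and 546 in c. *Apoe*, the lipid carrier of glia, had 2355 and 2053 in a, 1987 and 1769 in b and 2246 and 2166 in c.

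Beside *Apoe* and *Gja1*, which were abundant, 3 other glial markers in wide use gave few UMIs or none in these cells. *Vim*, an intermediate filament of many glia, gave 16 UMIs in the 87 cells and was seen in 12.6% of them. *Gfap*, the filament of astrocytes, gave 4 UMIs. *S100b*, a calcium-binding protein of glia, gave 0 UMIs in 87 cells, which allows a share of cells with a UMI of up to 3.45% (3 counts in 87 cells; the exact 95% upper limit was 4.15%). The same held for pituicytes b and c, where *Gfap* gave 1 UMI each and *S100b* gave 0.

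The cluster was set apart from pituicytes b and c in the part of its RNA that came from the mitochondrial genome, which encodes subunits of the respiratory chain. The median cell of pituicytes a had 11.4% mitochondrially encoded UMIs in pool 1 and 9.09% in pool 2, with single cells from 0.982 to 18.7%. Medians were 17.4 and 16.1% in pituicytes b and 21.3 and 18.0% in pituicytes c. As means of the pools this was 10.2% ± 1.62 (SD, n = 2 pools) in a, 16.7% ± 0.912 in b and 19.7% ± 2.32 in c, and the medians of single pools did not overlap between a and the others. Of pituicytes b, 36 of 36 cells in pool 1 and 18 of 19 in pool 2 lay above the median of a in the same pool. For pituicytes c it was 37 of 38 and 15 of 16. Single cells did overlap, since only 19 and 4 of the b cells and 34 and 6 of the c cells lay above the highest cell of a in their pool. Among the other clusters, medians in macrophages, T cells and endothelium lay between 3.62 and 5.53%, and the IL clusters had 9.16 and 8.63% (neural progenitor a) and 13.4 and 14.1% (neural progenitor b). The epithelial cluster had 8.24 and 10.0% and the OPC/LVMC cluster 8.56 and 10.2%, so pituicytes a lay inside the range of the tissue. The authors clustered these same cells on their expression, so this and each later difference between clusters is a description of size and error, with no test and no p-value.

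**Figure D2:**
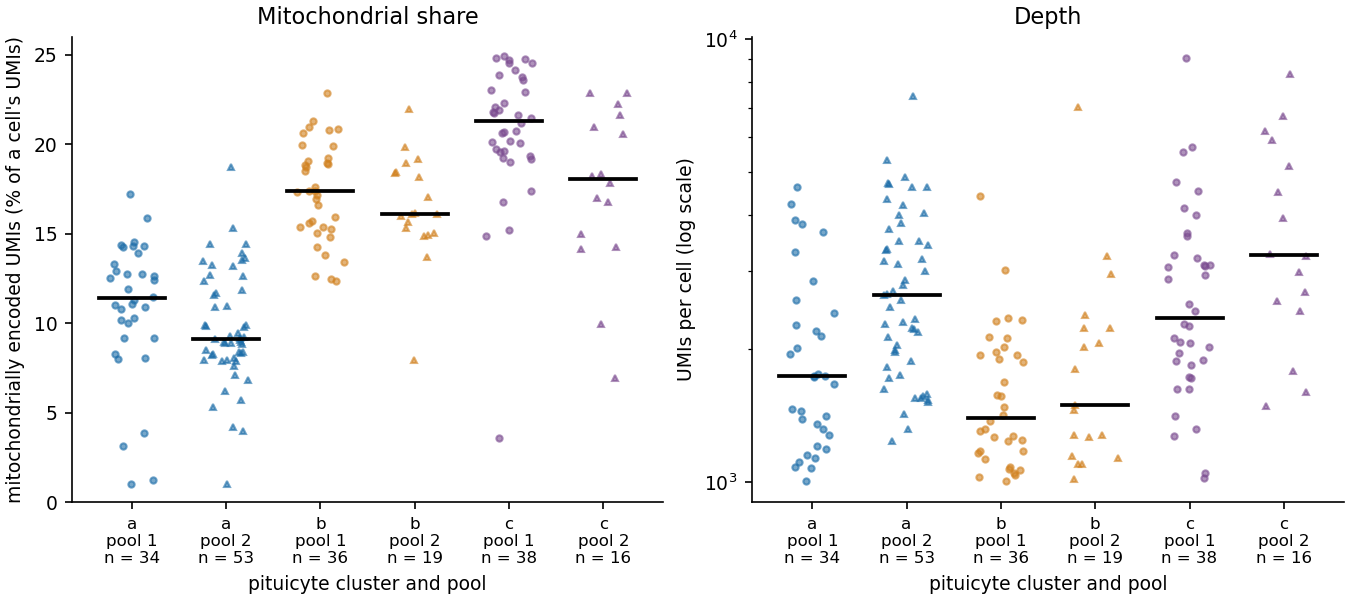
Left, percent of each cell's UMIs from mitochondrially encoded genes; right, UMIs per cell on a log scale, for pituicytes a, b and c in pool 1 (circles) and pool 2 (triangles), with a bar at the median. The medians of a, 11.4 and 9.09%, lie under those of b and c, while the depth of a, 1731 and 2639 UMIs, lies between b and c.

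Depth did not order the clusters in the same way. Pituicytes a had a median of 1731 UMIs and 881.5 genes per cell in pool 1 and of 2639 UMIs and 1318 genes in pool 2, with cells from 1005 to 7442 UMIs. Pituicytes b were shallower, at 1393 and 1493 UMIs, and pituicytes c deeper, at 2350.5 and 3252 UMIs. The medians of the 2 pools of a lay further apart than those of a and c within a pool.

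Gene by gene, the summed profile of pituicytes a was close to those of its neighbours. Across 1123 genes fitted, which are not independent replicates, its pools correlated with each other at r = 0.922 (Pearson, log2 of plain CPM plus 100). Within a pool, whose sums share mice, pituicytes a correlated with c at 0.925 and 0.927 and with b at 0.907 and 0.893. The next values were 0.696 and 0.753 for the epithelial cluster and 0.701 and 0.723 for IL cells of neural progenitor a. Of the 1123 genes, 95.5% differed less than 2-fold from b and 96.7% less than 2-fold from c, with a median SE of 0.46 and 0.41 on the log2 scale. A gene was taken to stand apart when its log2 fold was at least 1, over 2 SE, and both pools of a lay on the same side of both pools of the other cluster. By this size rule 17 genes (1.51% of those fitted) were higher in a than in b and 13 (1.16%) lower, and 16 (1.42%) were higher than in c and 8 (0.712%) lower. With no rule on the SE or on the size of the fold, both pools of a lay above both of b for 14.5% of genes and below for 14.2%, and for c the shares were 18.6 and 19.1%.

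Of the 13 mitochondrially encoded genes, 12 were fitted. Both pools of pituicytes a lay under both pools of b for 7 of the 12 and under both pools of c for 9, and above for 0 of them. The median log2 fold was -0.66 over b and -0.81 over c, where the median over all genes was -0.01 and 0.01. Summed, the list took 113449 and 90544 CPM in a, 190103 and 138315 in b and 201919 and 163806 in c. The member with the most UMIs, *mt-Co3*, a subunit of cytochrome c oxidase, had 25978 and 20633 CPM in a, 46303 and 33993 in b and 44476 and 37094 in c. *mt-Co1*, the catalytic subunit of the same enzyme, had 17787 and 18843 in a, 32964 and 27706 in b and 39974 and 32496 in c, a log2 fold of -0.73 (SE 0.36) and -0.98 (SE 0.36). The size rule was passed by *mt-Nd5*, a subunit of complex I, against c alone, at -1.03 (SE 0.39). It lies outside the rule for named genes and was singled out after its value was seen. In cells with a mitochondrial share of 10 to 20% only, where a kept 24 and 18 cells, b 30 and 17 and c 11 and 8, the list's median was -0.25 over b and -0.29 over c. That selection uses the readout itself, and it was chosen after the data were seen.

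The nuclear genes of oxidative phosphorylation did not follow the mitochondrial ones. Of 61 fitted subunit genes, 0 passed the size rule in either direction against b or c, and the median log2 fold was -0.03 and 0.07. Summed, they were at 24998 and 26346 CPM in a, 23696 and 29284 in b and 24573 and 24657 in c. *Cox6c*, the member with the most UMIs in a, had 1799 and 1900 CPM, against 1949 and 2032 in b and 1648 and 1839 in c. Glycolytic genes were as even, with 0 of 7 passing and medians of -0.01 and 0.07, and *Aldoc*, the aldolase of astrocytes, had 512 and 305 CPM in a, 420 and 478 in b and 383 and 327 in c.

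**Figure D3:**
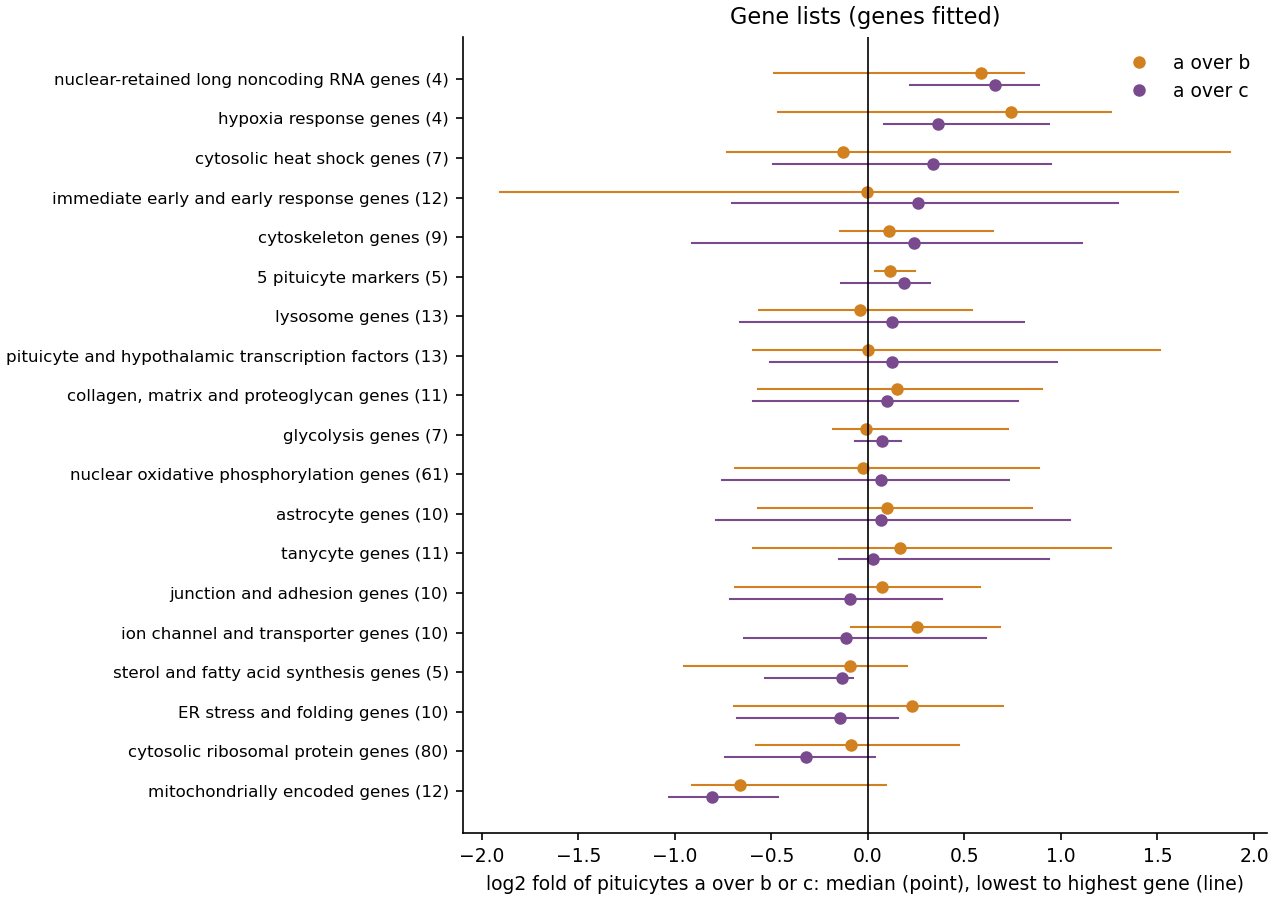
Log2 folds of pituicytes a over b (orange) and over c (purple) for the gene lists with at least 4 genes fitted, as the median (point) and the lowest to the highest gene (line), with the number of genes fitted after each name. Mitochondrially encoded genes have the lowest medians, -0.66 and -0.81, and nuclear oxidative phosphorylation genes lie at -0.03 and 0.07.

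Cytosolic ribosomal protein genes did not stand apart by the size rule, which 0 of 80 fitted genes passed against b or c. Both pools of a lay under both pools of c for 48 genes (19.1% of all fitted genes did) and above for 0 (18.6%). The median log2 fold was -0.32 over c and -0.09 over b (0.09 with no filter on low counts), and the summed level was 98354 and 125939 CPM in a, 137245 and 150184 in c and 103116 and 142044 in b. The difference from c was smaller without 3 cells, of which 2 were pituicytes c and 1 was a pituicyte b cell. A pituicyte c cell of pool 1 had 9070 UMIs, 41.1% of them ribosomal and 3.59% mitochondrial, and none of the 5 markers. It held 44 UMIs of *H2-Aa* and 86 of the 90 *Cd74* UMIs of c in that pool, both genes of MHC class II. With the 3 cells without any of the 5 markers left out, a selection made after the data were seen, the median over c was -0.14. In plain CPM the sums of a (97282 and 135132) and c (130012 and 153488) overlapped with these cells in place. Without them the sum of c in pool 1 was 104178, nearer to the 97282 of a in that pool. The pools differed by more than the clusters, since the median cell of a had 6.14% ribosomal UMIs in pool 1 and 12.5% in pool 2, against 7.57 and 15.4% in c and 7.27 and 14.9% in b. Of single genes, *Rps29* had 4403 and 5523 CPM in a, 6543 and 6998 in c and 5026 and 6909 in b. *Rpl39* had 3862 and 4057 in a, under both pools of c (5621 and 5751) and of b (4739 and 5331).

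*Malat1*, a long noncoding RNA retained in the nucleus, took a larger share of the median cell in pituicytes a than in any other of the 11 clusters in both pools. Its median share was 14.5% of a cell's UMIs in pool 1 and 8.79% in pool 2. The values were 9.75 and 0.0912% in b and 7.62 and 2.87% in c, and the highest of the 8 other clusters was 7.62% in pool 1 and 7.30% in pool 2. Each of the 87 cells had a *Malat1* UMI. In b, 2 of 36 and 8 of 19 cells had none, and in c 1 of 38 and 2 of 16. In the sums pituicytes a overlapped with b, while both pools of a lay above both pools of c. The levels were 129817 and 82827 CPM in a, 138602 and 23881 in b and 79997 and 39385 in c. The log2 fold was 0.39 (SE 0.56) over b and 0.83 (SE 0.57) over c. Of the other nuclear noncoding RNAs, *Neat1* was at 307 and 134 CPM in a, 191 and 24 in b and 128 and 78 in c, and *Kcnq1ot1* at 848 and 574, 478 and 311, and 618 and 358. *Meg3* ran the other way against b, with 2867 and 2866 in a, 5026 and 2988 in b and 3021 and 1870 in c. In plain CPM *Meg3* was at 14208 and 11637 in the IL cluster neural progenitor a. The part of IL RNA in its level in b was not tested. None of the 4 fitted members passed the size rule, though *Neat1* met it against c with pool as a block. Within pituicytes a, a cell with a high *Malat1* share tended to have a low ribosomal share, with a Spearman rho of -0.69 over 34 cells of pool 1 and -0.48 over 53 of pool 2. Both are shares of the same UMIs, and the same sign was found in b and c in each pool.

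**Figure D4:**
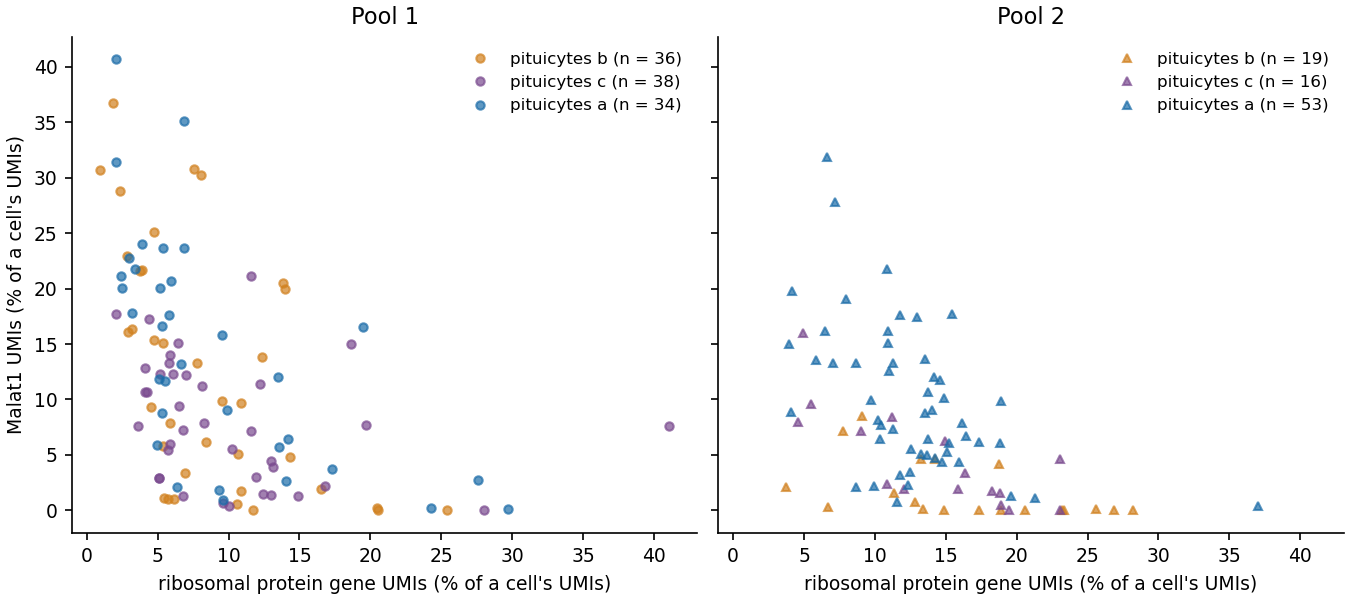
Percent of a cell's UMIs from Malat1 (vertical) against percent from cytosolic ribosomal protein genes (horizontal) in single pituicytes of pool 1 (left) and pool 2 (right), coloured by cluster. In pool 2 the median of pituicytes b lies at 0.0912% Malat1 and that of pituicytes a at 8.79%.

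Among transcription factors of pituicytes and the hypothalamus, 1 of 13 fitted passed the size rule against b and 0 against c, with a median near 0 over b and of 0.12 over c on the log2 scale. It was *Hes1*, the effector of Notch signalling (chromosome 16, 30064384 to 30067796), at 1126 and 923 CPM in a, 459 and 239 in b and 746 and 249 in c. Its log2 fold was 1.51 (SE 0.44) over b and 0.98 (SE 0.39) over c, and both pools of a lay above the 4 other values. With pool as a block the fold over c was 1.13 and met the rule. In the cells with a mitochondrial share of 10 to 20% the folds were 0.86 and 0.11. The *Hes1* fold over c was 0.59 in pool 1 alone, 1.88 in pool 2 alone and 0.52 with cells thinned. *Zbtb20*, the factor of the list with the most UMIs in a, was at 1243 and 1210 in a, 1242 and 956 in b and 883 and 1309 in c. *Nfib*, a factor of gliogenesis, was at 804 and 611, against 535 and 239 in b and 520 and 779 in c.

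Lists of tanycyte, astrocyte and matrix genes were close to even. Of 11 tanycyte genes fitted, 1 passed against b (*Adm*) and 0 against c, with medians of 0.16 and 0.03. *Fndc3c1*, a marker of tanycytes, had 658 and 672 CPM in a, 573 and 454 in b and 696 and 608 in c. Of 10 astrocyte genes, 0 passed against b and 1 against c, *Ptprz1*, a receptor phosphatase that binds pleiotrophin, at 1.05 (SE 0.45). *Ptprz1* was named for being that 1 gene. It had 336 and 226 CPM in a, 134 and 167 in b and 88 and 187 in c. *Slc1a3*, the glutamate transporter of astrocytes, had 1068 and 758 in a, 955 and 382 in b and 932 and 1107 in c. Among the 24 astrocyte genes, 4 had 0 UMIs in pituicytes a, namely *Fabp7*, *Hes5*, *Ntsr2* and *S100b*. None of 11 collagen, matrix and proteoglycan genes passed, with medians of 0.15 and 0.10. *Timp3*, an inhibitor of matrix metalloproteinases, was at 936 and 1008 CPM in a, 669 and 359 in b and 559 and 623 in c, and both pools of a lay above all 4 others.

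Ion channels and transporters (0 of 10 passed, medians 0.26 and -0.11), junction genes (0 of 10, 0.08 and -0.09), lysosomal genes (0 of 13, -0.04 and 0.12), genes of ER folding and stress (0 of 10, 0.23 and -0.14) and of sterol and fatty acid synthesis (0 of 5, -0.09 and -0.13) showed no member past the rule against b or c. *Cdh2*, the adhesion protein N-cadherin, was at 878 and 672 CPM in a, 898 and 789 in b and 481 and 1013 in c. *Psap*, a precursor of lysosomal activators, was lower in both pools of a (600 and 587) than in b (955 and 789) or c (1040 and 826). *Cd63*, a membrane protein of late endosomes, was higher (614 and 599) than in b (497 and 526) or c (373 and 312). *Hsp90b1*, a chaperone of the ER, had 541 and 342 in a, 688 and 263 in b and 569 and 312 in c. *Scd2*, a fatty acid desaturase, had 439 and 379 in a, 420 and 550 in b and 402 and 795 in c. Of 2 thyroid hormone genes fitted, 0 passed. No gene of the p53 and apoptosis list was abundant enough to be fitted. Its 15 genes summed to 453 and 257 CPM in a, 382 and 311 in b and 334 and 234 in c.

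Of 9 cytoskeleton genes, 0 passed. *Tmsb4x*, which binds actin monomers, had 1755 and 1809 CPM in a, 2350 and 1578 in b and 4140 and 2540 in c, a log2 fold of -0.91 (SE 0.30) over c. Without the 3 cells that lacked a marker, the fold was 0.01. *Actb*, cytoplasmic actin, had 1419 and 2291 in a, 1414 and 2175 in b and 2904 and 1418 in c, a fold of -0.22 (SE 0.33) over c that became 0.63 without those 3 cells. Metallothioneins, which bind zinc and respond to stress, were below b in both pools for 3 of 3 genes, where 14.2% of all fitted genes were. Their folds over b ran from -0.53 to -0.29, with a median of -0.38, and 0 passed the rule. *Mt1* was at 2267 and 2065 CPM in a, 2427 and 3227 in b and 2325 and 2120 in c. *Mt3*, the form of brain, was at 468 and 446 in a, 669 and 645 in b and 598 and 997 in c.

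Early response genes, which tissue dissociation is known to induce, were not uniformly higher or lower in pituicytes a. Of 12 fitted, 1 passed upward and 1 downward against b, and 1 upward against c, with medians of -0.01 and 0.26. The gene that passed upward against both was *Cyr61*, a matricellular target of growth signals, at 410 and 214 CPM in a, 134 and 48 in b and 147 and 78 in c, and *Gadd45g*, a stress gene, was lower than in b, at 132 and 37 against 306 and 215. These 2 genes were named for passing. *Fos* had 453 and 617 in a, 745 and 956 in b and 834 and 187 in c. *Jun* had 600 and 452 in a, 803 and 48 in b and 687 and 109 in c, so that pool 2 of a stood above pool 2 of b and c while pool 1 did not. Summed over the list, pituicytes a had 4447 and 3629 CPM, b 4949 and 4136 and c 4973 and 1387. Of 7 heat shock genes, 1 passed against b and 0 against c, with medians of -0.13 and 0.34. It was *Hspa1a*, the inducible cytosolic chaperone, at 541 and 220 CPM in a, 153 and 24 in b and 422 and 94 in c, a log2 fold of 1.88 (SE 0.68) over b. It rests on 8 and 1 UMIs in b and on 6 of 34 and 12 of 53 cells in a, and in pool 2 alone the fold was 2.93. The call was lost with cells thinned (1.44) and in the cells of 10 to 20% mitochondrial share (1.74). *Hspa1a* has a near-identical copy, *Hspa1b*, and reads that fit both could have been split or lost in counting. *Hsp90ab1*, a constitutive chaperone, had 863 and 800 in a, 707 and 1124 in b and 834 and 670 in c.

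Of 4 hypoxia response genes fitted, *Adm* passed against b and 0 passed against c, with medians of 0.74 and 0.36, and *Adm* and *Vegfa* are members of both this and the pituicyte list. *Ldha*, lactate dehydrogenase, had 234 and 141 CPM in a, 153 and 48 in b and 206 and 109 in c. *Higd1a*, a mitochondrial protein induced by hypoxia, had 322 and 220 in a, 382 and 335 in b and 186 and 187 in c.

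By the rule for named genes, the largest folds over b beside *Adm*, *Hes1* and *Hspa1a* were those of *Rsrc2*, *Mtdh* and *Fxyd1*. *Rsrc2*, an arginine- and serine-rich protein (chromosome 5, 123728426 to 123749414), was at 380 and 305 CPM in a, 76 and 143 in b and 196 and 140 in c. That was a log2 fold of 1.64 (SE 0.48) over b and 0.96 (SE 0.39) over c, with both pools of a above all 4 others. It rests on 26 and 50 UMIs in a against 4 and 6 in b, and the fold over b was 2.23 in pool 1 alone and 1.05 in pool 2 alone. It passed against b under each alternative that fitted it, and it was not fitted with cells thinned. *Fxyd1*, or phospholemman, a small membrane protein that regulates ion transport, was at 336 and 330 in a, 96 and 215 in b and 177 and 187 in c, a fold of 1.14 (SE 0.45) over b. That call was lost in pool 2 alone (0.59), with DESeq2 (1.12), with cells thinned (1.04) and without the pituicytes above 10 *Pomc* UMIs (0.96). *Mtdh* was at 219 and 324 in a, 153 and 96 in b and 216 and 312 in c, and so stood apart from b alone, a call lost in pool 1 alone (0.51) and with DESeq2 (1.13). Against c, 4 genes met the rule for naming, *Pcsk1n*, *Fzd5*, *Cers2* and *Etv1*. *Fzd5*, a receptor of Wnt ligands, had 468 and 342 in a, 206 and 171 in c and 363 and 454 in b, a fold of 1.05 (SE 0.39) over c. *Etv1*, a factor of the ETS family, had 424 and 287 in a, 177 and 156 in c and 229 and 143 in b, a fold of 1.03 (SE 0.39). *Cers2*, a ceramide synthase, had 380 and 251 in a, 108 and 203 in c and 210 and 191 in b, a fold of 1.03 (SE 0.42). *Fzd5*, *Cers2* and *Etv1* stood at 0.98, 0.96 and 0.95 once the 3 cells without a marker were left out, and in pool 2 alone *Fzd5* stood at 0.99, *Cers2* at 0.32, *Etv1* at 0.88 and *Pcsk1n* at 0.78. *Etv1* stood at 0.68 in the 10 to 20% window. *Cers2* and *Etv1* also fell just short with no filter on low counts (0.999 and 0.99) and with a minimum count of 5 (0.998 and 0.996). With DESeq2, none of the 4 passed, at folds of 1.06 to 1.30. *Pcsk1n*, an inhibitor of prohormone convertase, had 293 and 293 in a, 78 and 171 in c and 229 and 765 in b. In plain CPM it was at 2979 and 3478 in the IL cluster neural progenitor a, against 289 and 315 in pituicytes a. Its fold over b was -0.71 (SE 0.44), and 0.51 once pituicytes above 10 *Pomc* UMIs were left out. The part of IL RNA in its level was not tested.

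Lower in pituicytes a than in both neighbours was *Ifi27l2a*, an interferon-induced gene (chromosome 12, 103442167 to 103443680). It was at 102 and 67 CPM in a, 210 and 454 in b and 304 and 343 in c, so that each pool of a lay under the 4 other values. The log2 fold was -2.01 (SE 0.49) over b and -2.0 (SE 0.45) over c, and it passed against both. It was carried by few cells, with UMIs in 4 and 6 cells of a, 6 and 5 of b and 10 and 8 of c. In the window of 10 to 20% mitochondrial share the folds were -3.37 and -3.46, and in pool 1 alone the fold over b was -0.98. The call against c held under each alternative run. In plain CPM *Ifi27l2a* was at 695 and 857 in microglia a/macrophages, 2820 and 1337 in microglia b/macrophages and 492 and 963 in T cells. The summed macrophage markers, given below, were also lower in a than in b and c, and their part in this difference was not tested. *Ifit1*, another interferon-induced gene, was under the level needed for naming and passed against c, at 15 and 55 CPM in a, 96 and 48 in b and 284 and 312 in c. Its UMIs in c came from 4 and 3 cells, and it was singled out after its values were seen. Against b, *Pcp4*, a regulator of calmodulin, was lower at 249 and 147 in a, 573 and 406 in b and 245 and 343 in c, a fold of -1.40 (SE 0.41), and of -0.95 in the 10 to 20% window, where it no longer passed. *Prdx2*, a peroxiredoxin, was lower at 176 and 147 in a, 268 and 406 in b and 255 and 265 in c, a fold of -1.07 (SE 0.41). *Cnot3*, a subunit of the deadenylase complex CCR4-NOT, had 2179 and 1100 in a, 3860 and 2701 in b and 3031 and 2525 in c, a fold of -1.03 (SE 0.33). In plain CPM *Cnot3* was at 8503 and 2963 in the IL cluster neural progenitor a. The part of IL RNA in its level in b was not tested. *Cnot3* and *Prdx2* sat at the edge of the rule and missed it under 7 alternatives each, with folds from -0.79 to -0.95 and from -0.58 to -1.20.

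**Figure D5:**
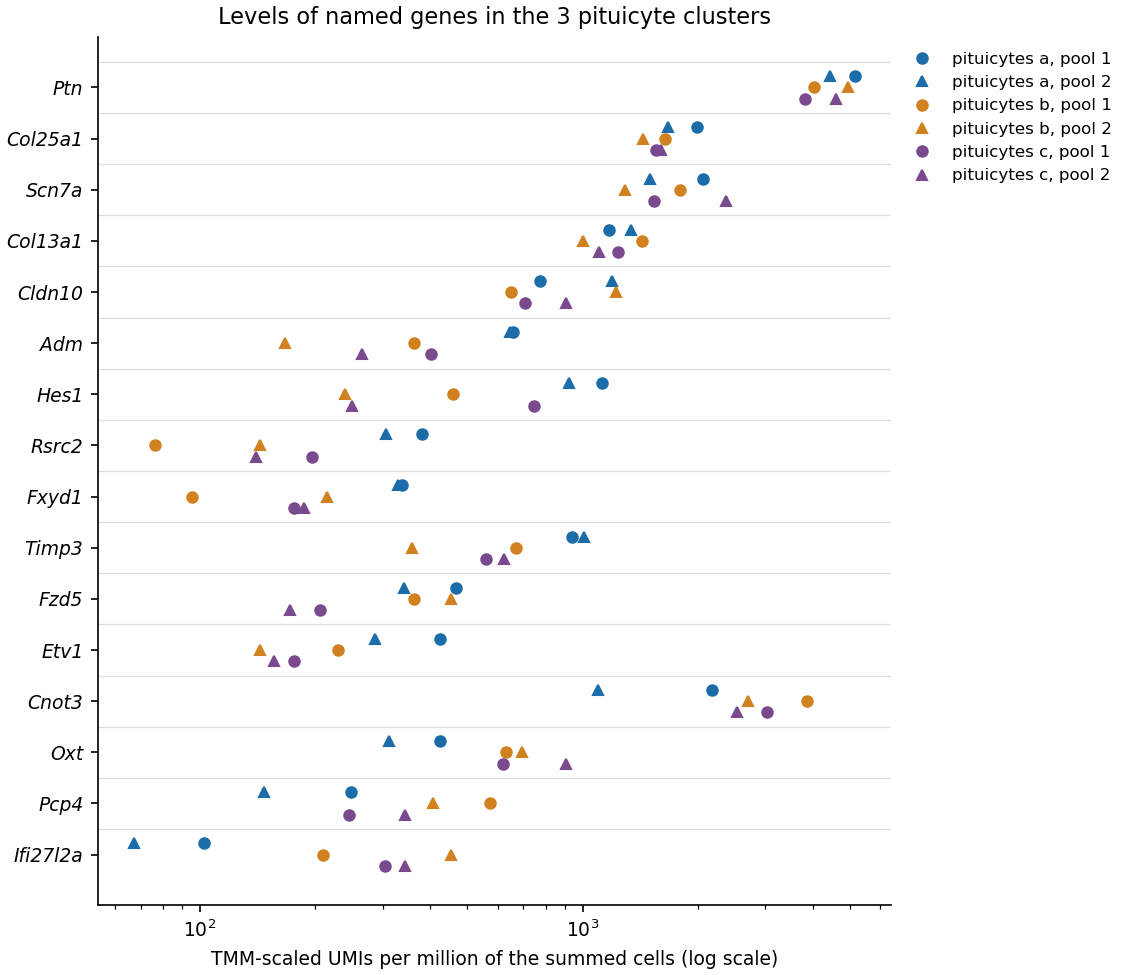
TMM-scaled CPM (log scale) of the 5 markers and of 11 genes described in the text, in pituicytes a (blue), b (orange) and c (purple), pool 1 as circles and pool 2 as triangles. The 5 markers overlap between clusters apart from Col25a1, Adm and Hes1 lie higher in both pools of a, and Ifi27l2a lies lower.

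Transcripts known from other cells moved with some of these differences. *Pomc*, the hormone precursor of IL melanotropes, had the largest fold of all genes, -5.76 (SE 0.52) over b, with 380 and 251 CPM in a and 15594 and 17618 in b. Of the 1553 *Pomc* UMIs in b, 781 were in a single cell of pool 1, which had none of the 5 pituicyte markers, and 636 in a single cell of pool 2. The highest cell of a had 4 UMIs. With the 5 pituicytes above 10 *Pomc* UMIs left out, 4 in b and 1 in c, the fold over b was -0.71. *Gnas*, a G protein subunit, changed with them, from -1.72 (SE 0.42) to -0.75, and its call was also lost in pool 1 alone (-0.95) and in the 10 to 20% window (-0.62). Barcodes of pool 1 with at most 50 UMIs, taken as droplets without a cell, held 1.57% *Pomc*. In plain CPM pituicytes a had 376 and 269, less than T cells (492 and 653) and macrophages (919 and 953). At 1000 UMIs per cell, 27.6% of pituicytes a and 38.1% of T cells had a *Pomc* UMI. Their median depths before thinning were 2214 and 1596 UMIs. The part of free RNA in the *Pomc* level of a was not tested.

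*Oxt*, the oxytocin precursor of hypothalamic neurons whose axons end in the NH, was lower in both pools of a (424 and 312 CPM) than in b (631 and 693) and c (618 and 904), a log2 fold of -0.87 (SE 0.37) and -1.06 (SE 0.35). The fold over c was -0.54 in pool 1 alone, -0.91 in the 10 to 20% window and -0.999 with library size alone, and missed the rule in each. In plain CPM, which are not scaled by TMM, pituicytes a had 420 and 334, T cells 55 and 69, macrophages 102 and 131, vascular endothelia 176 and 641, the OPC/LVMC cluster 0 and 1192, and the droplets without a cell of pool 1 6303. At 1000 UMIs per cell an *Oxt* UMI was found in 19.5% of pituicytes a (exact 95% interval 11.8 to 29.4%), 25.5% of b (14.7 to 39.0%), 42.6% of c (29.2 to 56.8%) and 4.76% of T cells (0.582 to 16.2%). Microglia a/macrophages, with 13.0% (6.14 to 23.3%), vascular endothelia, with 23.1% (5.04 to 53.8%) of 13 cells, and OPC/LVMC, with 27.3% (6.02 to 61.0%) of 11 cells, lay inside the interval of pituicytes a. Microglia b/macrophages, with 7.69% of 26 cells, and neural progenitor a, with 11.7% of 94 cells, lay below it, so the clusters that should lack the gene fell on both sides of its lower bound. *Avp*, the vasopressin precursor, had 59 and 37 CPM in a, 19 and 72 in b and 206 and 125 in c. The part of free RNA or of attached axons in these levels was not tested.

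Most marker lists of other cell types were low in pituicytes a, and those of endothelium and, in pool 2, of the anterior lobe were the highest beside the melanotrope and neurohypophyseal hormone genes above. Of 10 macrophage and microglia markers, 7 had a UMI, and their sum was 59 and 86 CPM in a, 287 and 215 in b and 206 and 1153 in c. *Fcer1g*, an Fc receptor chain, had the most UMIs in a, at 29 and 24 CPM, and 3 markers were at 0. In c, 68 of the 74 UMIs of pool 2 came from the single cell without a pituicyte marker in that pool. Of 8 T-cell markers found by symbol, only 1 had a UMI in a, *Lck*, at 0 and 6 CPM. Of 9 endothelial markers 8 had one, with a sum of 366 and 599 in a, 478 and 311 in b and 451 and 390 in c, led by *Pecam1*, an adhesion molecule, at 336 and 477 in a, 478 and 287 in b and 392 and 358 in c, while *Plvap* was at 29 and 24. The 9 VLMC (vascular and leptomeningeal) markers summed to 146 and 49, the 9 oligodendrocyte markers to 73 and 49 with *Cnp* highest, and the 7 precursor markers to 146 and 55 with *Olig1* highest. The 7 epithelial markers summed to 117 and 86 with *Clu*, which astrocytes also make, at 102 and 79. The 8 pericyte markers were at 0. Hormones of the anterior lobe summed to 29 and 330, of which *Gh* was 29 and 299, erythrocyte markers to 88 and 61, neuron markers to 44 and 6, and proliferation genes to 15 and 12.

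Among the 87 cells themselves, a few genes varied far beyond the rest. With each cell at 1000 UMIs, the ratio of variance to mean across cells had a median of 1.07 in pool 1 and 1.04 in pool 2 over 1091 genes, where sampling alone gives about 1. *Malat1* led with 74.2 and 49.4, a mean of 142 and 99.2 UMIs per 1000, and single cells up to 386 and 328. *Hes1* came next, at 6.72 and 4.40. It had a UMI in 14 of 34 and 20 of 53 thinned cells, and up to 16 and 12 UMIs in a cell. The early response genes *Jun* (4.22 and 3.90), *Ier2* (3.59 and 3.62) and *Btg2* (3.28 and 3.01), an antiproliferative gene, followed the same pattern of few cells with many UMIs, *Ier2* being found in 4 of 34 and 11 of 53 cells. Mitochondrially encoded genes also varied, with *mt-Co3* (3.98 and 3.45), *mt-Co1* (3.36 and 4.09) and *mt-Nd1* (4.02 and 2.71) among the 8 highest, and nearly each cell held UMIs of them. Outside the lists, the 8 most variable genes were *Cnot3*, *Pcp4*, *Gpc3*, *Ubb*, *Rps27rt*, *Fam104a*, *Igfbp5* and *Cst3*. *Cnot3* had ratios of 2.71 and 2.66, *Pcp4* 2.38 and 2.63, and *Gpc3*, a cell surface proteoglycan, 2.34 and 2.59. *Rps27rt* is a retrogene with a near-identical parent, so its counts are uncertain. Of the 5 markers, *Col25a1* (2.21 and 1.98), *Ptn* (4.36 and 1.92) and *Cldn10* (1.51 and 2.29) were among the 60 most variable genes.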

How the data were processed

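Per the labels and the study's methods, the authors aligned reads to mm10 (GRCm38) with Cell Ranger 2.0.0, with 1500 cells forced, and deposited raw UMI counts per gene and barcode, together with a series-wide table of mean expression in 11 clusters, which they had built with Seurat 2.3. The cluster means deposited by the authors are normalized to 10000 UMIs per cell and served here only to find the members. The listed barcodes were 737280 (4442416 UMIs) for pool 1 and 1500 (1474311 UMIs) for pool 2. Barcodes with 1000 to 10000 UMIs, 400 to 5000 genes and under 25% mitochondrial UMIs were kept, 273 and 255, and each was assigned to a cluster by least squares. Non-negative least squares gave the same cluster for 528 of 528 cells. Doublets were scored with Scrublet in scanpy 1.11.5 and left in place.

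Cells are not replicates. Counts were summed per cluster and pool, and the 6 sums of pituicytes a, b and c were fitted with edgeR 4.0.16 in R 4.3.3 (quasi-likelihood, TMM, minimum count of 10 and total of 15 per gene), which left 1123 genes and 3 residual degrees of freedom. Folds and their SEs are given, and no p-value, since the clusters were built on the same cells. The fit was checked on simulated data. Sums with the same pool number come from the same mice, and their deviations correlated at 0.282 (a and b), 0.202 (a and c) and 0.165 (b and c) over 1117 genes, so a fit with pool as a block was one of the alternatives. DESeq2 1.42.0 was another. Per-cell shares with a UMI, variance and marker calls used cells thinned to 1000 UMIs unless said otherwise. Spearman rho and exact intervals came from scipy 1.17.1.

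Named genes are the 5 markers, the 12 pituicyte genes of the study and up to 6 genes in each direction that passed the size rule. The last had a mean of at least 200 CPM and lie outside ribosomal and mitochondrial genes. Also named are the up to 4 members of each gene list with the most UMIs. The 8 most variable genes among pituicytes a outside the gene lists were added. *Btg2* and *mt-Nd1* were named for their ranks among all genes. The members, lists and tests were chosen with earlier results of these data known. Values were not corrected for gene length, so levels compare between clusters, and an order of genes by UMIs is not one of transcript levels.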

Additional observations from a re-analysis of the deposited data

Results flagged for a closer look

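Barcodes left out by the mitochondrial limit held pituicyte RNA. Of 56 barcodes in pool 1 that failed that limit alone, 40 had a UMI of at least 3 of the 5 pituicyte markers (71.4%, exact 95% interval 57.8 to 82.7%), and of 27 in pool 2 there were 11 (40.7%, 22.4 to 61.2%). Their median mitochondrial share was 33.7 and 34.9%. They were noticed because they lie outside the cells compared, carry no cluster in the deposited table and show the markers above the 0 to 4.35% of cells, likewise not thinned, in clusters other than pituicytes. What these barcodes would add to any cluster was not tested.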

How the results depend on the processing

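Each count below is of genes that passed the size rule, in the order higher than b, lower than b, higher than c and lower than c, with 17, 13, 16 and 8 as reported. DESeq2 gave 5, 6, 2 and 4. A minimum count of 5 gave 60, 32, 57 and 30 of 2764 genes, and no filter on low counts 257, 64, 152 and 110 of 13331, and these settings test more genes of low count. Cells thinned to 1000 UMIs gave 7, 7, 7 and 10 of 527 genes, of which 1, 4, 2 and 4 were genes reported. Single counts moved with library size alone (6 lower than b), in cells of 10 to 20% mitochondrial share (8 lower than b, 746 genes fitted), without pituicytes above 10 *Pomc* UMIs (8 lower than b) and without the 3 cells lacking the markers (9 higher than c); the cause was not tested, and the last 3 were chosen after seeing the data. With 1 pool left out there is no residual error and the rule is the fold alone, which gave 84 to 128, 47 to 50, 70 to 74 and 39 to 44. With pool as a block the counts were 19, 15, 23 and 7, within 1.5 times of those reported, with 15, 13, 16 and 6 of the reported genes among them; of named genes it changed the calls of *Adm*, *Hes1* and *Neat1* (1.14) against c. Leaving out mitochondrially encoded genes gave 17, 15, 17 and 9. In cells of 10 to 20% mitochondrial share the counts were 17, 8, 20 and 6, of which 4, 3, 3 and 2 were genes reported, so most genes that passed were different ones. The mean over cells of UMIs in pituicytes b was 1823, against a median of 1443, each averaged over the 2 pools. No result changed direction where it had passed the rule. The lower mitochondrial share of pituicytes a kept its order in both pools. With 2 pools and sums of 38168 to 152532 UMIs, genes of few UMIs had wide errors, and a 2-fold difference with the median SE of 0.46 against b was just over 2 SE.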

Other observations

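Genes below the level for naming also passed the size rule against both neighbours, and are given here as values chosen after they were seen. *Btbd17* was higher in pituicytes a by a log2 fold of 1.48 over b and 1.49 over c, and *Cacnb4*, a subunit of voltage-gated calcium channels, by 1.56 and 1.45. Listed against c only, and without their levels or folds, *Actr3*, *Rac1*, *Sh3bgrl3* and *Chmp4b* were lower. Of the 8 genes reported as lower than c, 6 still passed once the pituicytes with no marker UMI were left out. Whether these genes were among the 6 is not given here, so the part of those cells in their difference stays unknown.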
